A study of Mus musculus with 15 samples.

Results

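The genes described here are 7 genes of the glucocorticoid response: Nr3c1, which encodes the glucocorticoid receptor, and 6 genes that glucocorticoids are known to induce in many tissues, Fkbp5, Zbtb16, Sgk1, Tsc22d3, Klf9 and Ddit4. They were chosen by name from textbook knowledge of the pathway, with earlier results of these data known, and not by a threshold on values. They are 7 of the 52844 genes that the deposited transcript tables cover, and all 7 passed the filter on low counts that left 14968 genes for testing. Each gene's value is the sum over its annotated transcripts.

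RNA sequencing was done on epithelial cells dissociated from the jejunum of CC027/GeniUnc mice, an inbred strain of the Collaborative Cross, in 5 groups of 3 libraries. The PBS group received PBS by gavage during the sensitization weeks and was not challenged. The sensitized controls received crude peanut extract by gavage, 2 mg a week for 3 weeks and then 5 mg in week 4, and were not challenged either. The other 3 groups were sensitized in the same way, were challenged with 12 mg of peanut by gavage and were killed 30, 60 or 120 min later. No group received PBS as a challenge, and no group carried a transgene or a deletion. The labels give no age. Each library's title carries a different mouse number, and p-values measure the spread between these libraries. The mice not challenged were killed at the same time as the others, according to the labels, but the labels do not say at what time of day.

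Glucocorticoids are steroid hormones of the adrenal cortex that also arise locally in the intestinal epithelium. The receptor waits in the cytoplasm in a complex with Hsp90 and immunophilins, moves to the nucleus once it has bound hormone, and binds DNA as a dimer at a palindromic element. Mature enterocytes respond with more sodium and nutrient transport, and the hormone's release follows both stress and the time of day.

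The 15 libraries held between 15661513 and 22691349 estimated counts, of which 13.8% to 33.2% came from mitochondrially encoded genes, with replicate 3 of the 60 min group the highest. This share was 13.8% to 16.6% at 120 min, below the 17.1% to 26.7% of the sensitized controls. The 10 epithelial markers (Epcam, Cdh1, Vil1, Krt8 and others) were detected in every library. They summed to 17419 to 18477 CPM (counts scaled to a common library size) at 120 min, above all 12 other libraries, which spanned 12810 to 16005 CPM. Markers of other cells were not even across the groups either. The summed level of 12 T cell and intraepithelial lymphocyte markers was 25.8 to 79.9 CPM at 120 min, against 78.9 to 324 CPM in the sensitized controls, and that of 6 B and plasma cell markers was 23.2 to 58.2 CPM against 120 to 217 CPM. Summed Paneth cell markers were 1794 to 3611 CPM at 120 min against 3876 to 4664 CPM in the sensitized controls. All 12 T cell, 6 B cell and 5 tested Paneth cell markers were on the negative side in this comparison, and 0 of them passed edgeR's test. All 6 goblet cell markers (median log2 fold change -0.76) and all 5 erythroid markers (-0.91) were negative too, with 4 of each list not overlapping on the lower side, beside 13.3% of all genes. Of the 5 Paneth cell markers, 4 passed in the lower direction at 120 min against 60 min (median -1.47), beside 0.534% of all genes, and 3 against 30 min (median -1.40), beside 0.414%. Lyz1, a sixth Paneth cell marker, stayed at or below 0.562 CPM and was not tested. Replicate 1 at 30 min held 259 CPM of the 14 listed stromal and endothelial markers, against 7.39 to 19.0 CPM in the other 14 libraries. Without it, the log2 fold change at 120 min against 30 min was 2.46 for Fkbp5 and 1.90 for Sgk1, and that of Ddit4 at 30 min against the sensitized controls was 0.86. The part of these markers in the results that follow was not tested beyond the fits given beside them. In bulk RNA, fewer cells of a type and less RNA per cell cannot be told apart.

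**Figure D1:**
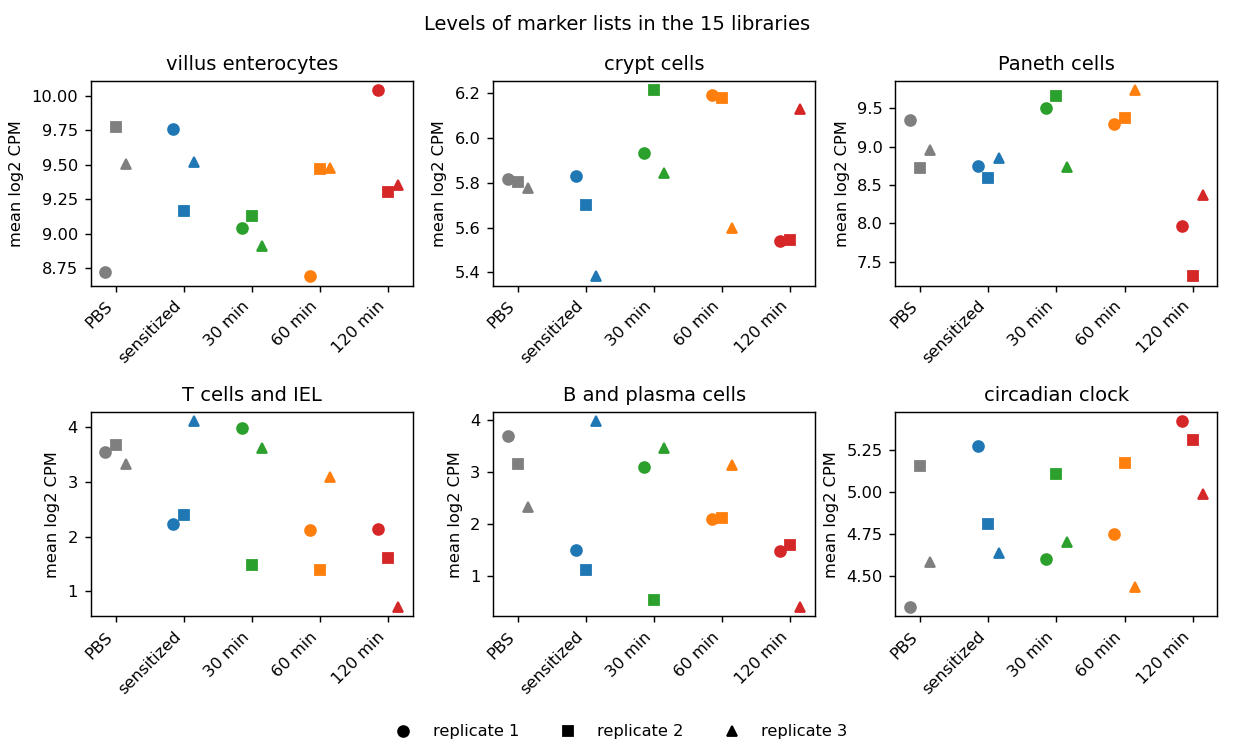
Mean log2 CPM of 6 marker lists (vertical axes, each with its own range that does not start at 0) in the 15 libraries, by group (horizontal axes), with replicates marked by shape. Paneth cell markers are lower in all 3 libraries at 120 min than in any other library, while the levels of the circadian clock list at 120 min overlap those of the sensitized controls.

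The receptor binds a palindrome made of 2 arms of 6 bases with 3 bases between them. Promoters were searched on both strands for the arm AGAACA followed by any 3 bases and then by the arm's reverse complement. In the RefSeq table of promoters on build GRCm38.p6, which spans 250 bases before to 50 bases after each start site, 5 of the 7 genes had entries, in 12 windows. The full palindrome was found in 3 of 32851 windows (0.00913%), and 1 of these belongs to Sgk1. The window is shown because it is the only one of the 12 that holds the element. It lies on the plus strand at chr10:21993640-21993939 and ends upstream of the first base of Sgk1-201, the transcript that carried most Sgk1 reads. The capitals mark the palindrome.

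Sgk1 promoter: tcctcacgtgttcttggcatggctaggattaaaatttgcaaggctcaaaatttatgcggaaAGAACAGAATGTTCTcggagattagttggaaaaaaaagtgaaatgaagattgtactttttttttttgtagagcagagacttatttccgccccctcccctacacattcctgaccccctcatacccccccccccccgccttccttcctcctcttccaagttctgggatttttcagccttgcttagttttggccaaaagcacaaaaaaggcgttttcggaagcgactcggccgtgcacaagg

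The palindrome begins 189 bases before the window's own start site and ends 951 bases before the start of Sgk1-201. That start site is the one of Sgk1-202, which held a mean of 17.4 estimated reads, against 1817 for Sgk1-201. The window at the start of Sgk1-201 held neither the full palindrome nor a single arm. The single arm AGAACA, which is part of every full palindrome, occurred in 6233 windows (19.0%), among them windows of Sgk1 and Tsc22d3. A match is a description of letters and not of binding, and the absence of one in these windows says nothing of elements elsewhere.

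The receptor gene Nr3c1 lies on chromosome 18 (39410545 to 39519421, minus strand, mm10). It was expressed at 113, 128 and 138 CPM in the PBS group, 133, 135 and 130 CPM in the sensitized controls, 111, 166 and 139 CPM at 30 min, 132, 158 and 186 CPM at 60 min, and 123, 136 and 106 CPM at 120 min. All 5 groups overlapped, and the highest library exceeded the lowest by 1.74 times, the smallest range of the 7 genes. The log2 fold change from the sensitized controls was 0.06 ± 0.16 (SE) at 30 min, 0.26 ± 0.16 at 60 min and -0.12 ± 0.16 at 120 min, and none passed (edgeR quasi-likelihood test with Benjamini-Hochberg adjustment over 14968 genes, adjusted p = 0.992, 0.511 and 0.741). Between 60 and 120 min the difference was -0.38 ± 0.16, with an unadjusted p of 0.0275 and an edgeR adjusted p of 0.198. Reads of Nr3c1 were divided mainly between Nr3c1-204, with a mean share of 54.5%, and Nr3c1-203.

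Fkbp5 encodes FKBP51, an Hsp90 co-chaperone that lowers the receptor's affinity for hormone and is among its most responsive targets (chromosome 17, 28399094 to 28517527, minus strand). Its level was 23.3, 117 and 32.6 CPM in the PBS group and 76.2, 40.4 and 15.8 CPM in the sensitized controls. After challenge it was 37.1, 49.99 and 55.5 CPM at 30 min, 45.3, 62.3 and 33.6 CPM at 60 min, and 381, 122 and 378 CPM at 120 min. The 3 libraries at 120 min were the highest of all 15, although replicate 2 of that group stood only slightly above replicate 2 of the PBS group.

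The mean of Fkbp5 was 294 ± 149 CPM (SD, n = 3) at 120 min and 44.1 ± 30.4 CPM in the sensitized controls, a log2 fold change of 2.73 ± 0.72 (SE), or 6.63-fold. This did not pass in edgeR's quasi-likelihood test (unadjusted p = 0.00315, adjusted p = 0.0940). Over 18 alternative settings the log2 fold change stayed between 2.33 and 3.36, the adjusted p ranged from 0.00350 to 0.290, and 3 settings passed. These were DESeq2 (adjusted p = 0.00350), limma-voom (adjusted p = 0.0417) and edgeR with all 6 mice not challenged as controls (adjusted p = 0.0338). Fkbp5-201 carried 98.6% of the gene's reads on average.

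Zbtb16 encodes PLZF, a zinc finger repressor that was first known from leukemia and is induced by glucocorticoids in many cell types (chromosome 9, 48654297 to 48836222, minus strand). It was the lowest of the 7 genes per length, at a mean of 0.967 TPM (Salmon's level per transcript length) over the 15 libraries. Its level was 0.272, 5.79 and 0.516 CPM in the PBS group and 2.56, 0.646 and 0.636 CPM in the sensitized controls. It then was 2.37, 2.15 and 5.74 CPM at 30 min, 0.869, 4.40 and 2.73 CPM at 60 min, and 19.3, 5.44 and 19.8 CPM at 120 min. Replicates 1 and 3 at 120 min exceeded every other library, while replicate 2 was below the highest library of the PBS and 30 min groups.

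Zbtb16 had the highest log2 fold change of the 7 genes at 120 min against the sensitized controls, 3.50 ± 1.07 (SE), with an edgeR adjusted p of 0.130. DESeq2 gave 3.53 and an adjusted p of 0.0201, the lowest of the 18 alternatives, which ran up to 0.376. Over these the log2 fold change ran from 2.77, with the PBS mice as controls, to 4.51, without replicate 1 of the sensitized controls. The highest library held 72.8 times the level of the lowest, and the low group rests on few reads: the leading transcript Zbtb16-201 had between 9 and 31.1 estimated reads in the sensitized controls, against 95.7 to 396 at 120 min. Zbtb16-202 had a share of 25.6 ± 23.1% (SD, n = 3) at 30 min and 7.68 ± 5.20% at 120 min. It had at most 59.1 estimated reads in any library, and its share was not tested.

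Sgk1 encodes a serine/threonine kinase that raises sodium uptake by keeping epithelial channels and exchangers at the cell surface (chromosome 10, 21882184 to 21999903, plus strand). It was measured at 30.9, 93.5 and 64.2 CPM in the PBS group and 148, 54.1 and 57.4 CPM in the sensitized controls. The challenged groups had 67.1, 70.1 and 53.2 CPM at 30 min, 60.7, 109 and 49.1 CPM at 60 min, and 332, 143 and 225 CPM at 120 min. Replicate 1 of the sensitized controls was above replicate 2 at 120 min, so these groups overlapped, whereas the 120 min libraries lay above all those of the PBS, 30 min and 60 min groups.

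For Sgk1 the log2 fold change at 120 min was 1.43 ± 0.50 against the sensitized controls (edgeR adjusted p = 0.175), 1.68 ± 0.51 against 60 min (adjusted p = 0.117) and 1.88 ± 0.51 against 30 min (adjusted p = 0.104). DESeq2 passed the comparisons with 60 min (adjusted p = 0.0294) and with 30 min (adjusted p = 0.0142). With all 6 mice not challenged as controls, edgeR gave 1.66 and an adjusted p of 0.0459. Over 18 alternatives the log2 fold change against the sensitized controls ran from 1.06, with a clock gene level as a term, to 2.06, without their replicate 1, and it was 1.07 without replicate 1 at 120 min.

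Sgk1 was the most abundant of the 7 genes per length, with a mean of 73.0 TPM, followed by Tsc22d3 at 51.1 TPM and Ddit4 at 34.9 TPM. This order leans on short transcripts: Sgk1-201 held 90.3% of the gene's reads but only 38.6 of the 73.0 TPM. Another 16.5 TPM came from Sgk1-212, whose mean effective length was 136 bases, and 12.8 TPM from Sgk1-209, with 71.1 bases. Nr3c1, Klf9 and Fkbp5 were close to each other at 26.7, 26.1 and 24.6 TPM, less than the spread between libraries.

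A longer transcript, Sgk1-203, starts at 21992223 upstream of Sgk1-201 and is named because it held the most Sgk1 reads after Sgk1-201. It held 744, 204 and 236 estimated reads at 120 min and 224, 19 and 42 in the sensitized controls. Its share of Sgk1 reads was 7.63 ± 2.91% (SD, n = 3) at 120 min, 4.96 ± 2.95% in the sensitized controls and 1.26 ± 0.68% at 60 min. The shares at 120 min overlapped those of the sensitized controls and lay above those at 60 min. They are estimates by Salmon over transcripts that share most exons, and no test of them was made.

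Tsc22d3 encodes GILZ, a leucine zipper protein that restrains inflammatory signalling (chromosome X, 140539528 to 140600659, minus strand). It was measured at 66.8, 85.3 and 79.1 CPM in the PBS group, 103, 88.6 and 77.5 CPM in the sensitized controls, 78.3, 104 and 98.2 CPM at 30 min, 80.0, 77.6 and 28.1 CPM at 60 min, and 144, 107 and 109 CPM at 120 min. The 120 min libraries were the 3 highest of all, by a margin over the next library that was small beside the spread within groups. Replicate 3 at 60 min was the lowest library and also the one with the highest mitochondrial share.

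Tsc22d3 differed by 0.42 ± 0.29 in log2 fold change at 120 min from the sensitized controls (edgeR adjusted p = 0.489) and by 0.95 ± 0.29 from 60 min (adjusted p = 0.115). DESeq2 passed the second comparison (0.96, adjusted p = 0.0182). Without replicate 3 at 60 min, the edgeR value against 60 min was 0.59, the lowest among the fits that left out a library. The transcript Tsc22d3-203 had a share of 10.1 ± 1.9% (SD, n = 3) of the gene's reads at 120 min. In the sensitized controls it was 6.29 ± 0.59%, without overlap, while the PBS group (6.79 ± 2.88%) overlapped the 120 min libraries. These shares are estimates by Salmon and were not tested.

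Klf9 encodes a zinc finger transcription factor that responds to several nuclear receptors and follows the day (chromosome 19, 23141226 to 23168134, plus strand). Its levels were 88.3, 124 and 115 CPM in the PBS group, 142, 141 and 105 CPM in the sensitized controls, 106, 159 and 144 CPM at 30 min, 178, 172 and 138 CPM at 60 min, and 164, 208 and 152 CPM at 120 min. The 120 min libraries lay above both groups not challenged and overlapped the 30 and 60 min groups. At 120 min the log2 fold change from the sensitized controls was 0.44 ± 0.18 (unadjusted p = 0.0305, edgeR adjusted p = 0.230), and no alternative passed.

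Ddit4 encodes REDD1, an inhibitor of the kinase mTORC1 that is also induced by hypoxia and energy stress (chromosome 10, 59949669 to 59951834, minus strand). It was measured at 45.5, 38.2 and 39.6 CPM in the PBS group and 49.2, 47.2 and 40.5 CPM in the sensitized controls. After challenge it was 85.5, 118 and 47.3 CPM at 30 min, 98.6, 67.8 and 42.7 CPM at 60 min, and 84.8, 61.4 and 112 CPM at 120 min. Its mean was 1.84, 1.53 and 1.89 times that of the sensitized controls at 30, 60 and 120 min, and only at 120 min did no library overlap them.

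Against the sensitized controls, the log2 fold change of Ddit4 was 0.87 ± 0.33 at 30 min (unadjusted p = 0.0214, edgeR adjusted p = 0.941), 0.61 ± 0.33 at 60 min (adjusted p = 0.473) and 0.92 ± 0.33 at 120 min (adjusted p = 0.179). DESeq2 passed the last of these (adjusted p = 0.0465). Its values at 30 min and at 120 min differed by 0.04 ± 0.33, and those at 60 min and 120 min by 0.31 ± 0.33. Replicate 3 at 30 min and replicate 3 at 60 min, with the lowest values of their groups, were within the range of the sensitized controls.

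**Figure D2:**
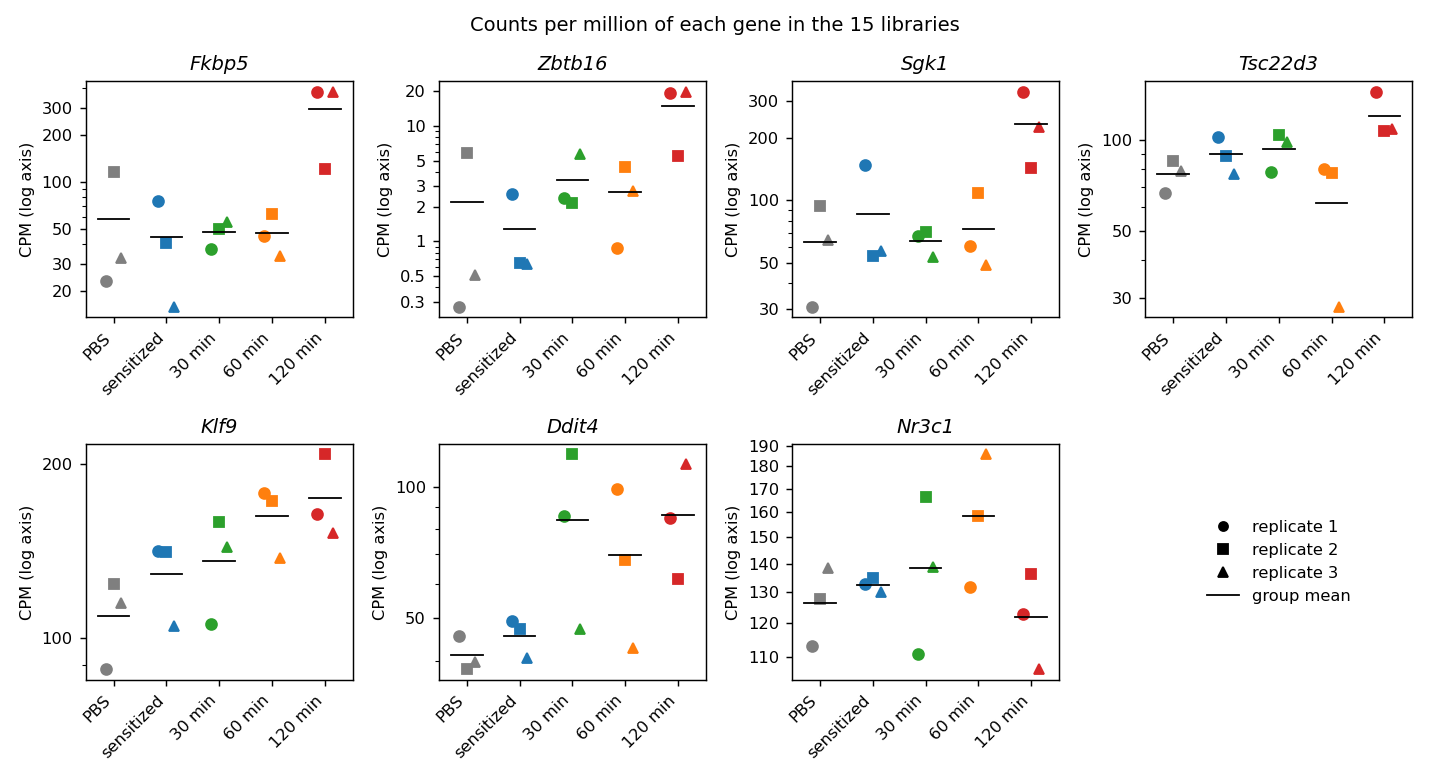
CPM of each of the 7 genes on log axes (vertical) in the 15 libraries by group (horizontal), with replicates marked by shape and the group mean as a line. Fkbp5, Zbtb16 and Sgk1 are highest at 120 min (294, 14.8 and 233 CPM on average), with replicate 2 the lowest of the 3 libraries there, and Nr3c1 stays between 106 and 186 CPM.

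Of the 7 genes, 0 passed edgeR's test in any of the 8 comparisons. At 120 min against the sensitized controls 1.26% of all genes tested passed (109 higher and 79 lower), at 120 against 60 min 1.12%, at 120 against 30 min 1.01%, and at 60 min 0.00668%, while no gene passed in the other 4. The 5 genes with an unadjusted p under 0.05 at 120 min against the sensitized controls were Fkbp5, Zbtb16, Sgk1, Klf9 and Ddit4, beside 17.7% of all genes. The libraries of the groups did not overlap, with 120 min higher, for 5 of the 7 genes (Fkbp5, Zbtb16, Tsc22d3, Klf9 and Ddit4), beside 13.3% of all genes. The median log2 fold change of the 7 was 0.92, and that of all genes -0.01.

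DESeq2 passed 3 of the 7 at 120 min against the sensitized controls, beside 6.14% of the genes it tested, 3 against 60 min, beside 6.92%, and 2 against 30 min, beside 5.83%. In limma-voom 1 of the 7 passed at 120 min, beside 1.12% of genes, and with all 6 mice not challenged as controls edgeR passed 2, beside 4.30%. With the leukocyte level as a term, the log2 fold change at 120 min against the sensitized controls was 2.44 for Fkbp5, 3.54 for Zbtb16, 1.25 for Sgk1, 0.19 for Tsc22d3, 0.26 for Klf9 and 0.56 for Ddit4, and 0 of the 7 passed (edgeR adjusted p = 0.238 for Fkbp5). With the mitochondrial share as a term it was 2.43, 3.41, 1.10, 0.08, 0.32 and 0.70 in the same order, and 0 passed (adjusted p = 0.134 for Fkbp5).

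Against 60 min, 5 of the 7 had an unadjusted p under 0.05 at 120 min (Fkbp5, Zbtb16, Sgk1 and Tsc22d3 higher, Nr3c1 lower), beside 19.7% of all genes, and 4 did not overlap on the higher side, beside 10.2%. Against 30 min these counts were 2 (Fkbp5 and Sgk1), beside 17.7%, and 3 (Fkbp5, Sgk1 and Tsc22d3), beside 12.1%. The log2 fold change of Fkbp5 was 2.64 ± 0.72 against 60 min (edgeR adjusted p = 0.0989) and 2.63 ± 0.72 against 30 min (adjusted p = 0.110). These 3 comparisons share the 120 min libraries.

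**Figure D3:**
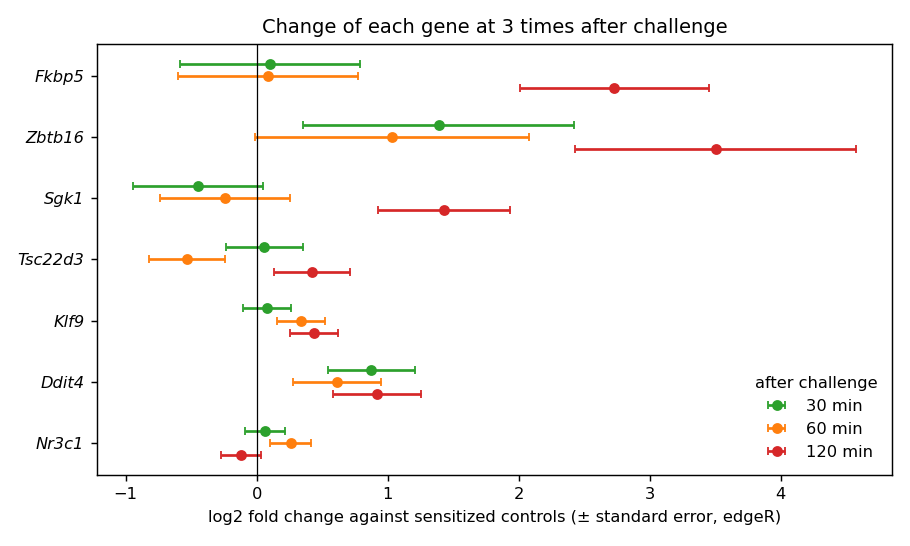
Log2 fold change of each gene against the sensitized controls (horizontal axis, with the standard error from edgeR as bars) at 30, 60 and 120 min after challenge. Fkbp5 (2.73), Zbtb16 (3.50) and Sgk1 (1.43) lie farthest to the right at 120 min, whereas Ddit4 lies between 0.61 and 0.92 at all 3 times, and the 3 comparisons share their controls.

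At 30 and 60 min few values stood apart. At 30 min 1 of the 7 genes, Ddit4, had an unadjusted p under 0.05, beside 5.04% of all genes, and at 60 min 0 did, beside 12.6%, with 0 passing in edgeR, DESeq2 or limma-voom at either time. Between 60 and 30 min all 7 edgeR adjusted p were between 0.863 and 0.997. Averaged over the 3 times, 1 of the 7 (Ddit4, 0.80 ± 0.28, edgeR adjusted p = 0.338) had an unadjusted p under 0.05, beside 10.5% of all genes.

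Sensitization without challenge gave no passing gene in edgeR, with 212 genes (1.42%) at an unadjusted p under 0.05 and 7 passing in DESeq2. None of the 7 genes was among these 212, and their adjusted p was 1 throughout. The signs of Fkbp5, Zbtb16 and Sgk1 in this comparison hung on single libraries. For Fkbp5 the log2 fold change was -0.38 with all libraries, 0.66 without replicate 2 of the PBS group and -1.02 without replicate 1 of the sensitized controls. For Zbtb16 the corresponding values were -0.74, 1.70 and -1.75, and for Sgk1 0.46, 0.86 and -0.17.

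Those libraries stood apart in several targets at once. Replicate 1 of the sensitized controls was the highest of its group in all 6 targets, and replicate 2 of the PBS group was the highest in 5 of 6. At 120 min replicate 2 was the lowest of its group in 5 of 6, the exception being Klf9. In the 60 min group, replicate 3, with 33.2% mitochondrial counts, was the lowest in 5 of 6. Replicate 1 of the PBS group (25.5%) and replicate 3 of the sensitized controls (26.7%) were also the lowest in 5 of 6. In the PBS, sensitized, 60 and 120 min groups the library lowest in 5 of 6 had the group's highest mitochondrial share. At 30 min that was replicate 3 (20.6%), the lowest in 2 of 6. The part of the mitochondrial share in this order was not tested.

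Among the 12 libraries that were not taken at 120 min, log2 CPM of Fkbp5 moved with that of Zbtb16 (Pearson r = 0.749, permutation p = 0.00416, Benjamini-Hochberg adjusted p = 0.0250 over 6 genes; Spearman rho = 0.790, adjusted permutation p = 0.0201). It also moved with Sgk1 (r = 0.695, adjusted permutation p = 0.0407; rho = 0.671, adjusted permutation p = 0.0390). Without the 2 libraries farthest from the median of Fkbp5, r was 0.708 for Zbtb16 and 0.857 for Sgk1. Of all genes tested, 0.455% had an r with Fkbp5 as high as that of Zbtb16 and 1.10% as high as that of Sgk1. For Klf9 and Tsc22d3 r was 0.542 and 0.344 (adjusted permutation p = 0.137 and 0.389) and rho 0.650 for each (adjusted permutation p = 0.0390). Ddit4 (r = 0.122, adjusted permutation p = 0.705) and Nr3c1 (r = 0.139, adjusted permutation p = 0.705) did not pass. The 12 points come from 4 groups and share one scaling of library size.

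**Figure D4:**
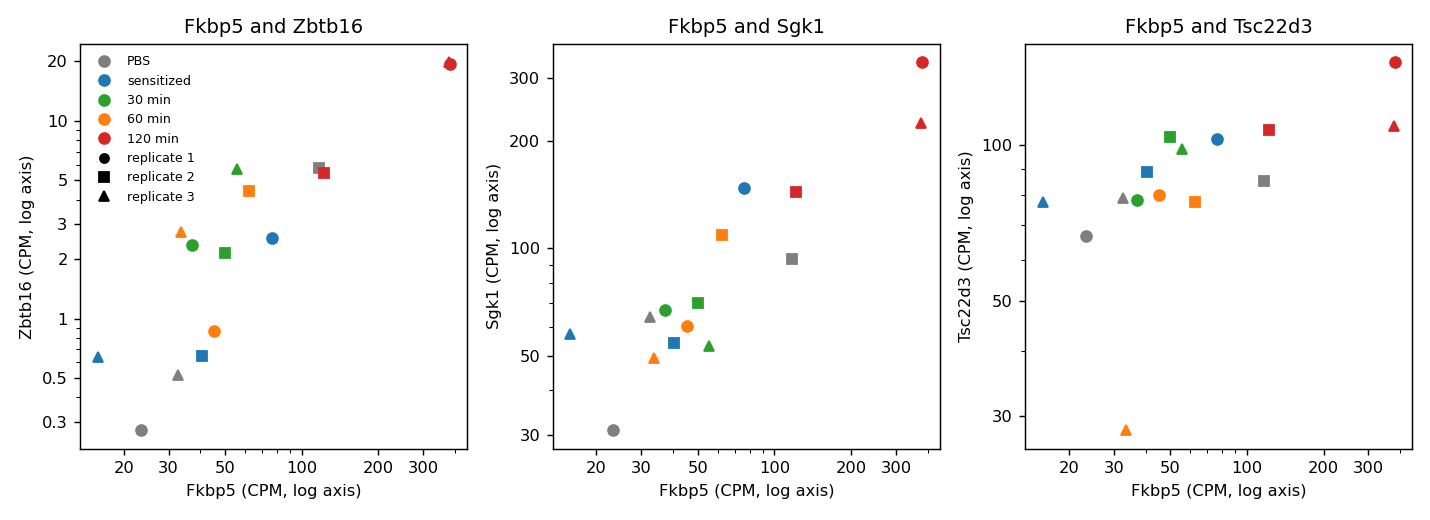
CPM of Zbtb16, Sgk1 and Tsc22d3 (vertical, log axes) against CPM of Fkbp5 (horizontal, log axes) in the 15 libraries, with groups in colour and replicates by shape. Apart from the 120 min libraries, replicate 2 of the PBS group (117 CPM of Fkbp5) and replicate 1 of the sensitized controls (76.2 CPM) lie farthest to the right.

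The circadian clock list moved with Fkbp5 in the same 12 libraries. Its level here is the mean of 14 genes, including Per1, which is also in the list of further glucocorticoid targets. The mean log2 CPM of the list had an r of 0.781 with Fkbp5 (permutation p = 0.00233, adjusted p = 0.0140 over 6 measures) and a rho of 0.853 (adjusted permutation p = 0.00492), and r was 0.736 without the 2 libraries farthest from the median of the clock level. The other 5 measures (villus, crypt, Paneth and T cell marker levels and the mitochondrial share) had r between -0.463 and 0.485, and no adjusted permutation p under 0.05. Dbp, a clock output gene named after its values were seen, was at 59.3 CPM in replicate 2 of the PBS group and at 69.7 CPM in replicate 1 of the sensitized controls, against 16.5 to 33.7 CPM in the other 4 libraries of these groups. Arntl, which encodes the core clock activator BMAL1 and was named in the same way, was at 5.73 and 10.9 CPM there, against 16.8 to 20.1 CPM. Replicate 2 at 30 min had similar clock values, with Dbp at 49.7 CPM and Arntl at 5.62 CPM. Its Fkbp5, at 49.99 CPM, lay between the other libraries of its group (37.1 and 55.5 CPM), and its Zbtb16 was the lowest there.

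At 120 min the clock level was 4.99 to 5.42 on the log2 scale, against 4.63 to 5.27 in the sensitized controls, and 0 of the 14 clock genes passed in edgeR or DESeq2, with 0 at an unadjusted p under 0.05, beside 17.7% of all genes. Their median log2 fold change was 0.39 against the sensitized controls (10 of 14 positive) and 0.55 against 60 min (11 of 14 positive). Against 60 min 4 of the 14 had an unadjusted p under 0.05, beside 19.7% of all genes, and against 30 min 2 had, beside 17.7%, with 0 passing in edgeR or DESeq2 in either. Of the 14, Per1 is also in the list of further glucocorticoid targets. The 2 with the smallest p, both not passing, were Cry2 (0.79, adjusted p = 0.31) and Ciart (1.43, adjusted p = 0.31). With the clock level as a term (Per1 left out), a setting chosen after the data were seen, the log2 fold change at 120 min against the sensitized controls was 2.40 for Fkbp5 (edgeR adjusted p = 0.0955), 3.15 for Zbtb16, 1.06 for Sgk1 and 0.16 for Tsc22d3. Against 60 min it was 1.89 for Fkbp5 and 1.02 for Sgk1. The part of the clock in these values was not tested further.

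Of 30 other genes known to be induced by glucocorticoids elsewhere, 1 passed at 120 min against the sensitized controls, in the higher direction, beside 0.728% of all genes. It was Hif3a, which encodes an inhibitory subunit of the hypoxia-inducible factors. Its level was 0.974, 1.08 and 0.283 CPM in the sensitized controls and 7.53, 3.57 and 6.80 CPM at 120 min. The 120 min libraries overlapped no other group. It was at 1.25, 2.21 and 1.19 CPM in the PBS group. The values were 1.76, 2.46 and 1.60 CPM at 30 min and 1.36, 1.99 and 1.66 CPM at 60 min. All of these lay above every sensitized control, so part of the difference is a low level in these controls. The log2 fold change was 2.90 ± 0.46 (edgeR adjusted p = 0.0152), and over 18 alternatives it ran from 1.94 to 3.59 with adjusted p from 2.92e-07 to 0.0641. The 4 alternatives that did not pass each left out a library: replicate 1 or 3 of the sensitized controls (adjusted p = 0.0583 and 0.0593) or replicate 1 or 3 at 120 min (0.0641 and 0.0628).

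In this list 19 of 30 genes were on the positive side at 120 min, with a median log2 fold change of 0.30 against -0.01 for all genes, and 10 did not overlap on the higher side and 2 on the lower, beside 13.3% of all genes on each side. An unadjusted p under 0.05 was reached by 11 of the 30, beside 17.7% of all genes. DESeq2 passed 6 of the 30, beside 6.14% of the genes it tested, which were Hif3a, Angptl4, Cdkn1a, Cebpd, Errfi1 and Lpin1. Per1 and Dusp1, early targets of the receptor in many cells that are named after their values were seen, were at 0.37 ± 0.24 (adjusted p = 0.458) and -0.15 ± 0.16 (adjusted p = 0.685). Against 60 min, Angptl4, an inhibitor of lipoprotein lipase, and Cebpd, a transcription factor, passed in the higher direction, beside 0.588% of all genes. Angptl4 was at 47.4, 41.4 and 41.5 CPM in the sensitized controls. It was at 34.7, 30.7 and 20.3 CPM at 60 min and 123, 54.3 and 104 CPM at 120 min. Between 60 and 120 min it differed by 1.71 ± 0.31 (edgeR adjusted p = 0.0273). Cebpd was at 10.8, 9.96 and 10.8 CPM in the controls and at 20.6, 11.4 and 12.8 CPM at 30 min, all above the controls. It was at 9.73, 9.13 and 4.79 CPM at 60 min and 21.8, 14.6 and 22.3 CPM at 120 min. From 60 to 120 min it differed by 1.31 ± 0.27 (edgeR adjusted p = 0.0371). Both genes were below the sensitized controls in all libraries at 60 min, so part of each difference is a lower level at 60 min than in these controls. In the PBS group Angptl4 was at 29.9, 25.6 and 49.6 CPM and Cebpd at 11.5, 9.47 and 8.41 CPM. The 60 min libraries overlapped the PBS group in both genes. At that time 20 of the 30 genes were on the negative side against the sensitized controls (median -0.17, against -0.02 for all genes).

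Against 30 min, Angptl4 (1.78 ± 0.31, edgeR adjusted p = 0.0310) and Slc9a3, which encodes the sodium/hydrogen exchanger NHE3 of the enterocyte brush border (1.03 ± 0.22, adjusted p = 0.0448), passed in the higher direction, beside 0.595% of all genes. Slc9a3 was at 143, 131 and 165 CPM in the sensitized controls. It was at 97.0, 99.9 and 126 CPM at 30 min and at 294, 133 and 231 CPM at 120 min. Its 30 min libraries were all below the sensitized controls, and its replicate 2 at 120 min was within their range. Angptl4 was also below them at 30 min, at 23.7, 24.3 and 33.7 CPM. At 120 min against 30 min all 10 villus enterocyte markers were on the positive side (median log2 fold change 0.52). Of these, 7 were without overlap, beside 12.1% of all genes, and 0 passed in edgeR. The part of these markers in the value of Slc9a3 was not tested. Most fits that left out 1 library ended these calls: of 6 such fits in each comparison, edgeR passed Angptl4 in 2 against 60 min and 2 against 30 min, Cebpd in 2 and Slc9a3 in 1. Without replicate 1 at 120 min, the adjusted p was 0.132 for Angptl4 and 0.178 for Cebpd against 60 min, and 0.138 for Angptl4 and 0.195 for Slc9a3 against 30 min. Fitted on only the groups compared, Angptl4 (edgeR adjusted p = 0.131) and Cebpd (0.1495) did not pass against 60 min, nor did Angptl4 (0.0928) and Slc9a3 (0.162) against 30 min. With the leukocyte level as a term, Angptl4 did not pass against 60 min (edgeR adjusted p = 0.0508) or 30 min (adjusted p = 0.115), nor did Slc9a3 (adjusted p = 0.105). With the mitochondrial share as a term, Angptl4 and Cebpd did not pass against 60 min (edgeR adjusted p = 0.0834 and 0.104), nor did Slc9a3 against 30 min (adjusted p = 0.0639). With the clock level as a term none of the 4 calls passed (edgeR adjusted p from 0.145 to 0.234).

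**Figure D5:**
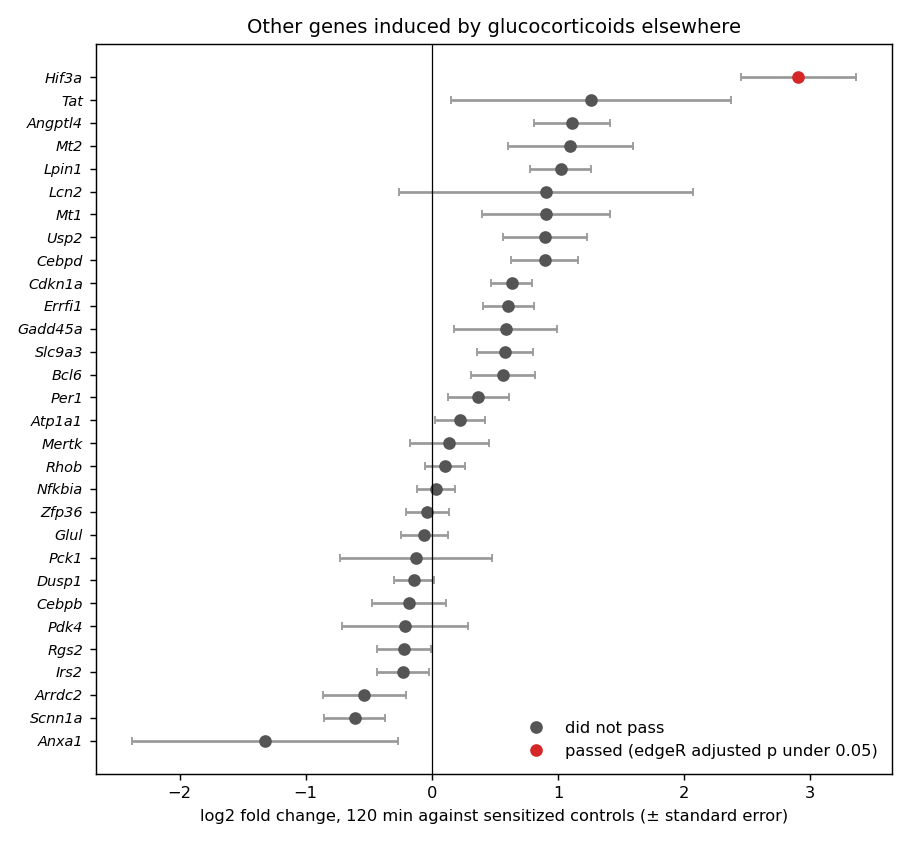
Log2 fold change at 120 min against the sensitized controls (horizontal axis, with the standard error as bars) of 30 further genes that glucocorticoids induce in other settings, sorted by value. Hif3a (2.90) passed, and 19 of the 30 values lie above 0.

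Of 15 genes for the receptor's partners (chaperones, co-chaperones and coregulators), 0 passed in edgeR or DESeq2 at 120 min against the sensitized controls, with 2 at an unadjusted p under 0.05, beside 17.7% of all genes. These were the corepressor gene Nrip1 (0.54 ± 0.17, adjusted p = 0.128) and the coactivator gene Ncoa1 (0.34 ± 0.12, adjusted p = 0.162). At 60 min against the sensitized controls 7 of the 15 had an unadjusted p under 0.05, all on the positive side, beside 12.6% of all genes, and 4 did not overlap on the higher side, beside 9.37%, with 0 passing in edgeR or DESeq2. On the negative side were 4 of the 15. They include 2 chaperone genes named after their values were seen, Hspa8 (-0.28 ± 0.14, edgeR adjusted p = 0.415, without overlap) and Hsp90aa1 (-0.33 ± 0.16, adjusted p = 0.413). At 30 min Hsp90aa1 was at -0.40 ± 0.16 (edgeR adjusted p = 0.941). Of 11 genes for local synthesis, reactivation and export of the hormone, 7 were tested and 0 passed in edgeR or DESeq2 at 120 min against the sensitized controls, with 2 at an unadjusted p under 0.05, beside 17.7% of all genes. H6pd, which supplies NADPH to the enzyme that reactivates the hormone, was at 0.59 ± 0.22 (adjusted p = 0.178), and Abcb1a, an efflux pump gene, at 0.94 ± 0.42 (adjusted p = 0.261). Cyp11b1 and Cyp21a1, of steroid synthesis, had 0 counts in all 15 libraries, and Cyp11a1 reached at most 0.466 CPM.

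Genes whose log2 CPM was most like each of the 7 were taken by Pearson's r over the 15 libraries among 10791 genes. Since the 120 min libraries stand apart, r within groups, after the group means were removed, is given beside it. Fkbp5 was nearest to Slc6a6, the taurine transporter gene (r = 0.950, 0.903 within groups), and Slc10a2, the ileal bile acid transporter gene (0.941, 0.864). Slc6a6 was also the nearest to Zbtb16 (0.890, 0.888). Sgk1 was nearest to Vipr1 (0.939, 0.840), Tsc22d3 to the metallothionein gene Mt1 (0.943, 0.934), Klf9 to Afap1l1 (0.958, 0.944), Ddit4 to the cell cycle kinase gene Cdk1 (0.905, 0.897) and Nr3c1 to Zswim5 (0.950, 0.939). The 8 genes nearest to the mean of the 6 targets were Slc10a2, Gatad2a, Eaf1, Etfbkmt, Axin1, Aqp1, Fgfr4 and Ampd2, with r from 0.915 to 0.941. These are descriptions of 15 libraries that share 5 groups, and carry no test.

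Slc6a6 passed at 120 min against the sensitized controls, with 260, 200 and 176 CPM in the controls and 660, 433 and 544 CPM at 120 min (1.36 ± 0.22, edgeR adjusted p = 0.0165, from 9.21e-07 to 0.0976 over 18 alternatives). The 4 alternatives that did not pass left out replicate 2 or 3 of the sensitized controls (adjusted p = 0.0777 and 0.0976) or replicate 1 or 3 at 120 min (0.0696 and 0.0645). Fgfr4 (1.77 ± 0.31, edgeR adjusted p = 0.0198) and Eaf1 (0.64 ± 0.13, adjusted p = 0.0298) passed too. So did Dnaja2, the third nearest to Zbtb16 (0.46 ± 0.10, edgeR adjusted p = 0.0435). Over 18 alternatives Fgfr4 passed in 11, Eaf1 in 10 and Dnaja2 in 6. Of 6 fits that left out 1 library, Fgfr4 passed in 1, Eaf1 in 1 and Dnaja2 in 0. Of all genes, 1.26% passed in this comparison. Slc10a2 was at 25.2, 12.7 and 8.76 CPM in the sensitized controls and 108, 45.8 and 80.4 CPM at 120 min, without overlap, and did not pass (2.32 ± 0.56, adjusted p = 0.0688). As for Fkbp5, replicate 2 was the lowest of the 120 min libraries in Slc6a6 and Slc10a2, and replicate 1 the highest of the sensitized controls. Both genes were picked for their likeness to Fkbp5 in these same libraries. Their like order, and a higher level at 120 min, follow from that choice and are no separate evidence. Fgfr4, Eaf1 and Dnaja2 were picked in the same way, for likeness to Zbtb16 or to the mean of the 6 targets. Their higher level at 120 min is likewise no separate evidence.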

How the data were processed

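Per the submitters' processing notes, the authors trimmed reads with cutadapt 1.18 and quantified transcripts with Salmon 1.2.1. Per the labels, reads were 151 bp paired-end. The deposited tables, per their headers, give estimated counts and TPM per transcript; neither names the annotation release. Transcript IDs were matched to GENCODE M21 (mm10) with versions ignored: 137943 of 139058 matched, and the other 1115 held 0.374% to 0.602% of counts. Estimated counts were summed per gene and rounded. The test was edgeR 4.0.16 (filterByExpr, TMM, robust quasi-likelihood, 5 group means in one fit, 10 residual degrees of freedom, Benjamini-Hochberg over 14968 genes), with genes passing at an adjusted p under 0.05. CPM use TMM-scaled library sizes, and log2 CPM a prior count of 2. Alternatives included DESeq2 1.42.0 and limma-voom (limma 3.58.1) in R 4.3.3. The scripts were tested on simulated data. The gene members and all lists were chosen with earlier results of these data known. Named genes are the 7 members, the list genes that passed or, where none did, up to 2 with the smallest p, and the genes nearest to a member; exceptions are marked in the text. The Nr3c1 promoter sequence is not reported here.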

Additional observations from a re-analysis of the deposited data

Results flagged for a closer look

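Of the genes in the lists of the receptor pathway and clock, 3 had a change from the sensitized controls that differed between times, by edgeR's test of that difference. They were 2 of the 30 further glucocorticoid targets at 120 min against 60 min, beside 1.12% of all genes, and 2 of the 30 against 30 min, beside 1.01%. Of the 15 partner genes, 7 tested genes of hormone supply and 14 clock genes, 0 passed in either comparison. Angptl4 was higher at 120 min by 1.71 on the log2 scale against 60 min (adjusted p = 0.0273) and by 1.78 against 30 min (adjusted p = 0.0310). Cebpd was higher at 120 min by 1.31 against 60 min (adjusted p = 0.0371), and Slc9a3 by 1.03 against 30 min (adjusted p = 0.0448). With 1 library left out, Angptl4 passed in 2 of 6 fits in each comparison, Cebpd in 2 of 6 and Slc9a3 in 1 of 6. Fitted on only the groups compared, none of these genes passed. At the earlier time compared, each of them was below the sensitized controls in all libraries, while Angptl4 and Cebpd overlapped the PBS group. None of the 7 genes described above passed such a test in edgeR.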

How the results depend on the processing

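No paired analysis was possible because each title carries its own mouse number, so the groups share no replicate numbers. All counts here are of genes passing. Counts at 120 min against the sensitized controls (188), 60 min (168) and 30 min (151) moved with the setting. DESeq2 gave 784, 883 and 806, and also 7 for sensitized against PBS, 6 at 30 min, 176 at 60 min, 147 for the mean of 3 times and 5 for 60 against 30 min. Transcript length offsets gave 34, 46 and 32. The leukocyte level as a term gave 32, 97 and 7. The clock level as a term, chosen after seeing the data, gave 24, 0 and 2. Without a filter on low counts there were 279 against 60 min, 49 at 60 min and 32 for the mean of 3 times. Fitting only the groups compared gave 0 against 60 min and 4 against 30 min, and the mitochondrial share as a term gave 4 against 60 min, 7 at 60 min and 6 for the mean. All 6 unchallenged mice as controls gave 644 at 120 min. The single gene at 60 min became 0 with limma-voom, only the groups compared, length offsets, PBS mice or all 6 unchallenged mice as controls, and 2 with the leukocyte term. The causes were not tested.

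Leaving out 1 library at a time, the count at 120 min ran from 7 (without sensitized control replicate 3) to 240 (without 120 min replicate 2) and was 12 to 16 without any other library. Against 60 min it ran from 0 (without 120 min replicate 1 or 3) to 1151 (without 60 min replicate 1), with 2 without 60 min replicate 2 or 3 and 298 without 120 min replicate 2. Against 30 min it ran from 4 (without 120 min replicate 1) to 67 (without 120 min replicate 2), and was 15, 59 and 52 without 30 min replicates 1, 2 and 3 and 37 without 120 min replicate 3. At 60 min it ran from 0 to 385 (without 60 min replicate 1), at 30 min and between 60 and 30 min from 0 to 1 (without 30 min replicate 1), for the mean of 3 times from 0 to 5 and for sensitized against PBS it was 0 in all fits. The arm left with 2 libraries is assumed to vary like the others.

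No log2 fold change of Fkbp5, Zbtb16, Sgk1, Tsc22d3, Klf9, Ddit4 or Nr3c1 at 120 min against the sensitized controls turned sign in any of 18 alternatives. Values near 0 elsewhere did. Against the sensitized controls, Fkbp5 was -0.28 at 30 min and -0.29 at 60 min with PBS mice as controls, and -0.09 and -0.10 with all 6 unchallenged mice. Sgk1 was 0.01 and 0.22 with PBS mice. Nr3c1 with length offsets was -0.05 at 30 min and -0.03 for the mean, and Tsc22d3 with the mitochondrial term -0.03 at 30 min. In sensitized against PBS mice, Zbtb16 was 0.22 with limma-voom and Ddit4 -0.10 with the leukocyte term. Between 60 and 30 min, Fkbp5 was 0.10 with length offsets and 0.17 with the mitochondrial term. Between 120 and 60 min, Klf9 was -0.04 with the leukocyte or the mitochondrial term and -0.15 with the clock term. Between 120 and 30 min, Ddit4 was 0 with length offsets, -0.35, -0.10 and -0.05 with the leukocyte, mitochondrial and clock terms, and Tsc22d3 -0.02 with the clock term.

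With 1 library left out, signs also turned in these ranges. In sensitized against PBS mice, Fkbp5 ran from -1.02 to 0.66, Zbtb16 from -1.75 to 1.70, Sgk1 from -0.17 to 0.86 and Nr3c1 from -0.01 to 0.13. At 30 min, Fkbp5 ran from -0.30 to 0.75, Sgk1 from -0.69 to 0.19, Tsc22d3 from -0.04 to 0.18, Klf9 from -0.05 to 0.23 and Nr3c1 from -0.08 to 0.21. At 60 min, Fkbp5 ran from -0.31 to 0.75 and Sgk1 from -0.64 to 0.40. Tsc22d3 for the mean of 3 times ran from -0.11 to 0.10. Between 60 and 30 min, Fkbp5 ran from -0.26 to 0.17, Zbtb16 from -0.93 to 0.24, Sgk1 from -0.20 to 0.41 and Ddit4 from -0.58 to 0.08. Ddit4 between 120 and 30 min ran from -0.24 to 0.36, and Klf9 between 120 and 60 min from -0.07 to 0.18. The depth of 15661513 counts or more leaves Zbtb16, with as few as 9 estimated reads of its main transcript in a sensitized control, as the least precise of the 7.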
